A study of Mus musculus with 6 samples.

Results

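The genes described here are 29 genes of B-cell development and plasma cells, taken by their GENCODE symbols from the 55450 genes counted in each library. They were read in 6 bulk RNA-seq libraries of LT-HSCs, the long-term blood stem cells that can rebuild all blood lineages over a long time. The cells came from wild-type male C57/Bl6 mice of 22 to 24 months, and all libraries share this genotype, strain, sex and age. LT-HSCs were sorted from each mouse as Lin-, Sca1+, cKit+, CD48- and CD150+, and the gate named CD61High took the 10% with the most surface CD61 (integrin beta 3) and the gate named CD61Low the 10% with the least, with 5000 cells per library. There are 3 libraries per gate, 1 of each gate from mice 1, 2 and 3; the titles name 1 mouse per library, while the protocol speaks of pools. The sources used here do not list the antibodies of the lineage cocktail. By stage, 5 of the genes belong to the lymphoid progenitor, 8 to the pre-B cell, 10 to the mature B cell and 6 to the plasma cell.

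B cells arise in the bone marrow from lymphoid progenitors that respond to interleukin 7 and begin to cut and join their immunoglobulin genes with the RAG recombinase. The transcription factors EBF1 and PAX5 then fix the B-cell fate and switch on the surrogate light chain and the signalling chains of the B-cell receptor. Mature B cells carry receptors such as CD20, CD21, CD22 and CD23, and those that become plasma cells turn on BLIMP1, IRF4 and XBP1 and secrete antibody. LT-HSCs stand before all these stages, so the labelled cell type is not one in which most of these genes are known to be active.

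Total counts on genes were 21354130 to 26398090 per library, and a count of 0 allows up to 0.114 to 0.140 CPM, a gene's count scaled to a common library total, a limit that covers counting error only. Levels below are CPM of the total gene counts unless another scale is named. All 13 LT-HSC marker genes had counts in all 6 libraries, and their summed level was 2298 and 1500 CPM in the CD61High and CD61Low libraries of mouse 2, against 4842 to 6882 CPM in the other 4. Markers of other blood cells varied between mice. The 20 neutrophil markers summed to 6915, 83070 and 802 CPM in CD61High of mice 1, 2 and 3 and to 25470, 133300 and 2660 CPM in CD61Low, and 11 erythroid markers to 617 to 13920 CPM in CD61High and 1063 to 26730 CPM in CD61Low. The 12 monocyte and dendritic cell markers summed to 38.6 to 877 CPM and 61.6 to 1254 CPM, the 14 T and NK cell markers to 104 to 273 CPM and 123 to 338 CPM, and the 8 plasmacytoid dendritic cell markers to 207 to 324 CPM and 208 to 398 CPM. In mouse 3 the markers at 0 counts numbered 4 of 14 for T and NK cells in CD61High and 3 in CD61Low, 4 and 3 of 8 for plasmacytoid dendritic cells, 2 and 3 of 12 for monocytes and dendritic cells, 1 and 0 of 20 for neutrophils, and none of the erythroid list. In mouse 3 the sums for T and NK cells and for plasmacytoid dendritic cells came mostly from few genes. Lair1 and Tcf4 were at 79.9 and 122.7 of the 207 CPM in CD61High, and Klrb1c at 101 of the 123 CPM in CD61Low. Of the T and NK cell markers that passed the filter on low counts, 7 of 13 were in mouse 3 at under 10% of their mouse 2 level in both gates. So were 4 of 7 plasmacytoid dendritic cell markers. In each of the 5 lists of other blood cells mouse 2 had the highest sum and mouse 3 the lowest in both gates. Their part in the results that follow was not tested.

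Most B-cell and plasma cell genes were high in mouse 2, intermediate in mouse 1 and near 0 in mouse 3, in both gates. Of the 27 members that passed the filter on low counts, 20 stood in the order mouse 2, mouse 1, mouse 3 in both gates, against 9.97% of the 15610 genes tested. Likewise 19 of the 27 were in mouse 3 at under 10% of their mouse 2 level in both gates, against 4.22% of the genes tested. The median member of mouse 3 stood at 0.678% of its mouse 2 level in CD61High and at 1.69% in CD61Low, where the median gene stood at 125% and 150%. Rag2 and Mzb1 did not pass the filter. In mouse 3, 10 of the 29 genes had 0 counts in CD61High and 5 in CD61Low, and in mouse 1, 3 had 0 counts in CD61High. These are bulk samples, in which fewer cells of a type and less RNA per cell cannot be told apart.

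**Figure D1:**
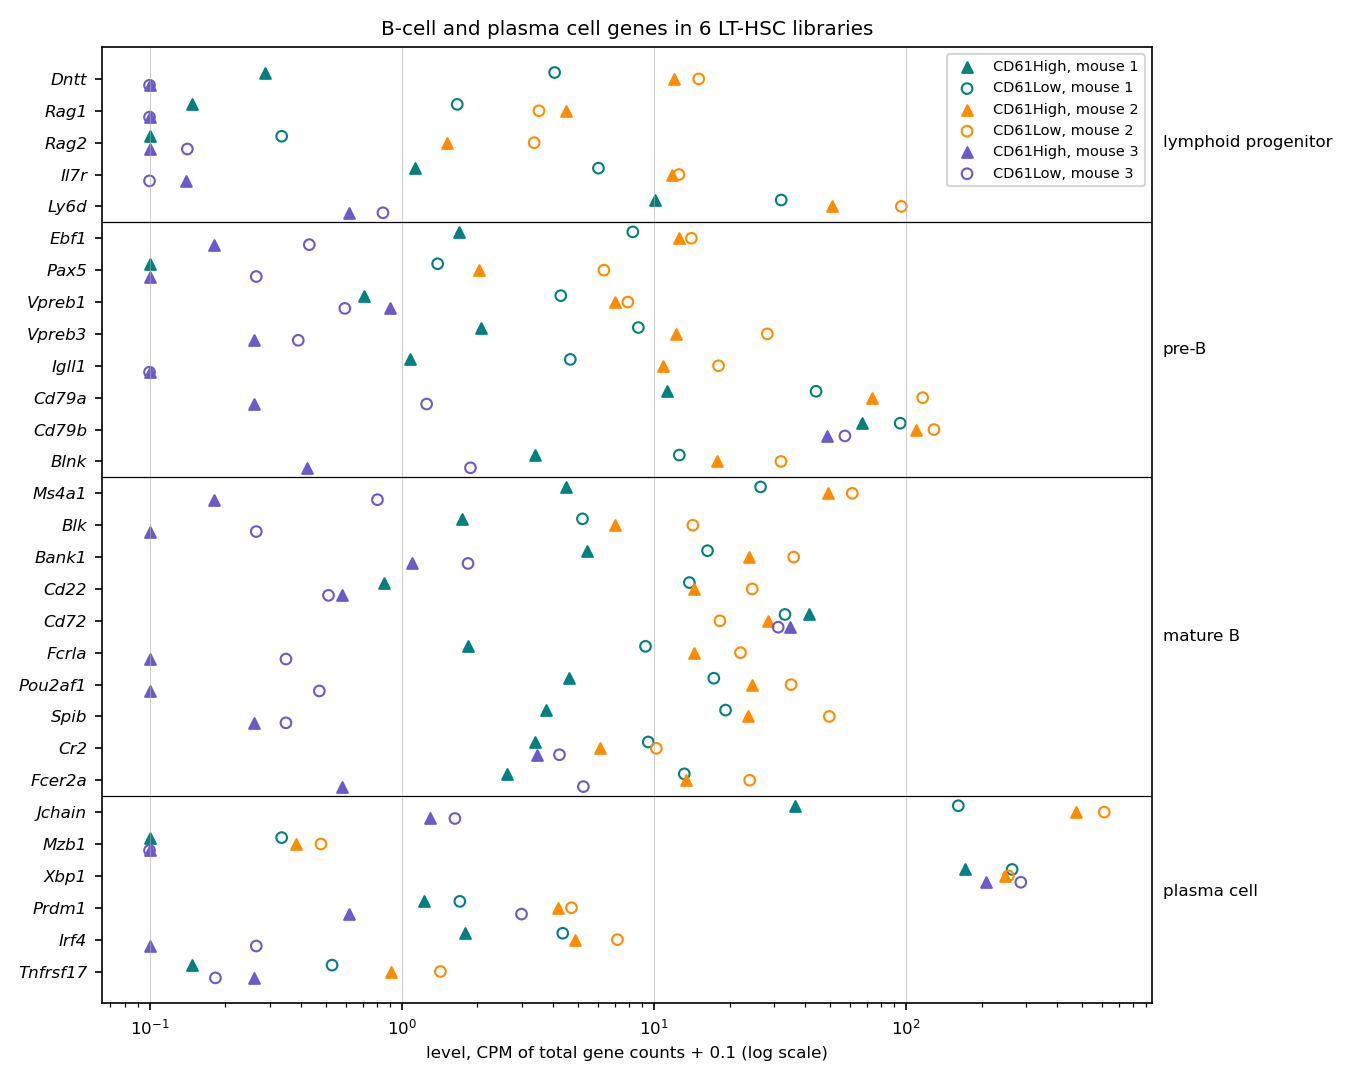
Level of each of the 29 genes in each library, in CPM with 0.1 added so that counts of 0 can be drawn on the log axis; filled triangles are CD61High and open circles CD61Low, coloured by mouse. Most genes run from mouse 3 on the left to mouse 2 on the right, while Cd72 and Xbp1 keep their level in mouse 3. Cd79b keeps 44.6% and 44.3% of its mouse 2 level in CD61High and CD61Low of mouse 3.

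Between the gates, most members were lower in CD61High within a mouse. Of the 27 tested, 26 were lower in CD61High in mouse 1, 25 in mouse 2 and 19 in mouse 3, where 3 more (Dntt, Rag1 and Igll1) had 0 counts in both libraries. In all 3 mice, 19 were lower in CD61High, against 24.7% of all genes tested, and 1, Cd72, was higher, against 20.7%. These shares go by sign alone. For Ly6d, Ebf1, Pax5, Vpreb3, Blk, Spib, Cr2, Jchain and Irf4 the counts of mouse 3 do not set the gates apart. Their counting intervals for the ratio of CD61Low to CD61High in mouse 3 include 1. Pax5, Blk and Irf4 had 0 counts in CD61High and 4 in CD61Low of that mouse. The median log2 difference between the gates over the members, on TMM-adjusted CPM with a prior of 2 counts, was -2.10, -0.86 and -0.42 in mice 1, 2 and 3, against 0.00, -0.07 and -0.01 over all genes tested.

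In the test over all 6 libraries without a mouse block (edgeR's quasi-likelihood test, adjusted over 15610 genes), 0 of the 27 members passed, against 0.0% of all genes. None was at an unadjusted p under 0.05, the lowest adjusted p was 0.803, and DESeq2 and limma voom without a block called none either. With the mouse as a block edgeR still called 0 members, while it called 0.16% of all genes as lower and 0.0961% as higher; 19 members were then at an unadjusted p under 0.05 and the lowest adjusted p was 0.0648. Other tools with the same block differed: DESeq2 called 16 members as lower, against 7.11% of all genes, and limma voom called Ly6d, Vpreb3 and Spib as lower, against 1.63%. Without mouse 2, edgeR with the block called 4 of the 23 members then tested, Cd79a, Blnk, Ms4a1 and Fcer2a, as lower, against 2.93% of genes; without the block it called none of them. Leaving out 1 library, CD61Low of mouse 2, turned the unblocked log2 fold change of 21 of the 26 members with a negative value positive, to values of 0.04 to 1.26. That fit keeps CD61High of mouse 2 without its partner, so its signs mix the spread between mice with the gate. Within mouse 2 itself most members were lower in CD61High.

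The lymphoid progenitor genes were, as a sum, the stage lowest in mouse 3, at 0.560 CPM in CD61High and 0.785 CPM in CD61Low. Dntt, which encodes the terminal transferase that adds bases at immunoglobulin joints, was at 0.187, 12.0 and 0 CPM in CD61High of mice 1, 2 and 3 and at 3.95, 15.0 and 0 CPM in CD61Low. Rag1, a catalytic part of the RAG recombinase, was at 0.0468, 4.40 and 0 CPM in CD61High and at 1.56, 3.41 and 0 CPM in CD61Low. Its partner Rag2 reached 1.41 and 3.26 CPM in CD61High and CD61Low of mouse 2 and at most 0.235 CPM in the other 4 libraries. The 3 recombination genes were thus seen well above the limit of a 0 count in mouse 2 in both gates and, for Dntt and Rag1, in CD61Low of mouse 1.

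Il7r, the interleukin 7 receptor alpha chain, was at 1.03, 11.8 and 0.0400 CPM in CD61High and at 5.94, 12.5 and 0 CPM in CD61Low. The gates of mouse 2 were close for this gene in CPM, with a ratio of CD61Low to CD61High of 1.06 (95% counting interval 0.904 to 1.25), where mouse 1 gave 5.77 (3.67 to 9.47). On TMM-adjusted CPM the gates of mouse 2 stood further apart, at 12.7 in CD61High and 16.3 in CD61Low. Ly6d, a surface protein that marks lymphoid progenitors set for the B lineage, was the most abundant of the stage in CPM at 10.1, 50.9 and 0.520 in CD61High and 32.0, 96.0 and 0.744 in CD61Low. It was lower in CD61High in 3 of 3 mice, by log2 1.68, 1.19 and 0.42, while the 3 values of one gate overlapped those of the other. In mouse 3 its 13 counts in CD61High and 18 in CD61Low do not set the gates apart, with a ratio of CD61Low to CD61High of 1.43 (95% counting interval 0.663 to 3.18). With the block the log2 fold change of Ly6d was -1.28 (SE 0.23, adjusted p = 0.0657 in edgeR). Without the block it was -1.27 (SE 1.89, adjusted p = 0.940 in edgeR). For Rag1, by contrast, mouse 2 was the mouse with the higher level in CD61High, by a log2 difference of only 0.09 on TMM-adjusted CPM. Its ratio of CD61Low to CD61High in CPM was 0.776 (95% counting interval 0.580 to 1.035) in that mouse. Without mouse 1 the blocked log2 fold change of Rag1 was 0.17, against -1.45 (SE 1.17, adjusted p = 0.535 in edgeR) over 3 mice.

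Of the 8 pre-B genes, 6 stood in the order mouse 2, 1, 3 in both gates, and the exceptions were Pax5 and Vpreb1, which were highest in mouse 2 too. Ebf1, the factor that starts the B-cell programme, was at 1.59, 12.5 and 0.0799 CPM in CD61High and at 8.17, 14.0 and 0.330 CPM in CD61Low. Pax5, which holds cells in the B lineage, was at 0, 1.94 and 0 CPM in CD61High and at 1.29, 6.25 and 0.165 CPM in CD61Low, where its 4 counts in mouse 3 lie just above the limit of a 0 count. Pax5 had the most negative blocked estimate of the members, a log2 fold change of -3.00 (SE 0.85, adjusted p = 0.129 in edgeR). Part of its exons, 8.6%, overlaps another gene, and the counting did not use strand.

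Vpreb1, Vpreb3 and Igll1 encode the surrogate light chain or proteins that accompany it in the pre-B cell. Vpreb3 was at 1.97, 12.2 and 0.160 CPM in CD61High and at 8.60, 28.2 and 0.289 CPM in CD61Low. Within the mice Vpreb3 differed by -2.10, -1.48 and -0.58 on the log2 scale, and its blocked log2 fold change was -1.67 (SE 0.31, adjusted p = 0.0661). The value of mouse 3 rested on 4 counts in CD61High and 7 in CD61Low. Igll1 was at 0.983, 10.8 and 0 CPM against 4.57, 18.0 and 0 CPM. Vpreb1 was at 0.609, 6.94 and 0.799 CPM against 4.18, 7.80 and 0.496 CPM, so in mouse 3 its CD61High library was the higher one, by 20 counts to 12. Vpreb1 shares 86.5% of 773 aligned transcript bases with Vpreb2, and 9.01% of its exons lie in Top3b, a gene at 52.9 to 106 CPM in these libraries, so its low counts are uncertain; without mouse 1 its blocked value was 0.03 in place of -0.85 (SE 0.66).

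Cd79a and Cd79b encode the paired signalling chains of the B-cell receptor, and both stood in the order mouse 2, 1, 3 in both gates, with a far wider spread for Cd79a. Cd79a was at 11.2, 73.3 and 0.160 CPM in CD61High and at 44.0, 117 and 1.16 CPM in CD61Low, so that mouse 3 kept 0.218% and 0.991% of the mouse 2 level. Cd79b was at 67.0, 109 and 48.8 CPM in CD61High and at 95.0, 129 and 57.3 CPM in CD61Low, and mouse 3 kept 44.6% and 44.3%. On the TPM scale, which divides each count by exon length before scaling, the level of Cd79a was 0.163, 0.658 and 0.00322 of that of Cd79b in CD61High and 0.455, 0.886 and 0.0198 of it in CD61Low. Cd79b was thus the more abundant chain per length in each library. With the block and without mouse 2, Cd79a fell in CD61High by log2 2.20 (SE 0.29, adjusted p = 0.0272 in edgeR), but with all 3 mice the value was -1.62 (SE 0.31, adjusted p = 0.0750). Cd79b was at -0.41 (SE 0.14, adjusted p = 0.171) with the block.

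Blnk, the adaptor that links the receptor to its downstream enzymes, was at 3.28, 17.7 and 0.320 CPM in CD61High and at 12.5, 31.9 and 1.78 CPM in CD61Low. The ratio of CD61Low to CD61High was 3.83 (95% counting interval 2.95 to 5.03), 1.80 (1.60 to 2.03) and 5.55 (2.58 to 13.7) in mice 1, 2 and 3, above 1 in each mouse. Its blocked log2 fold change of -1.71 (SE 0.30, adjusted p = 0.0648) came closest to the threshold among the members; without mouse 2 it was -2.15 (SE 0.37) and passed at 0.0443. Without the block it was -1.29 (SE 1.57, adjusted p = 0.939).

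Promoter windows of the members were read from RefSeq (GRCm38.p6), 250 bases before to 50 after a gene's start, for the 24 members in the table, which have 27 windows. The windows of Vpreb3, Blnk, Spib, Cd79a and Xbp1 are shown because they set members that were nearly lost in mouse 3 beside Xbp1, which was not; they were chosen after their values and motif matches were seen. They lie at chr10:75948050-75948349 (plus strand, Vpreb3), chr19:40994172-40994471 (minus strand, Blnk), chr7:44532022-44532321 (minus strand, Spib), chr7:24897247-24897546 (plus strand, Cd79a) and chr11:5520391-5520690 (plus strand, Xbp1). Each runs 5′ to 3′ along the gene's strand, and capitals mark a match to the octamer ATGCAAAT, the EBF pair CCCNNGGG or the E-box CAGGTG on either strand.
Vpreb3: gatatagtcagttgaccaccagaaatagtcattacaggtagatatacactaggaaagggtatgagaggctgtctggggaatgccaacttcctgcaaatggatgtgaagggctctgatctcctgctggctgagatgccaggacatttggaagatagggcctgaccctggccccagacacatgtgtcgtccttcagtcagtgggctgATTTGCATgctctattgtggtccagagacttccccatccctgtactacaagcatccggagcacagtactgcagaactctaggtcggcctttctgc
Blnk: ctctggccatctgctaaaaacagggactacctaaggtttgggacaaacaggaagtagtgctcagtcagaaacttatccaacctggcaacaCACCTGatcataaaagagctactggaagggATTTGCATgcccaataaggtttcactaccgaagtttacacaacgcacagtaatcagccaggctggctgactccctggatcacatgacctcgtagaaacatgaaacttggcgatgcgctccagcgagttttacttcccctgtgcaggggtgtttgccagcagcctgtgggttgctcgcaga
Spib: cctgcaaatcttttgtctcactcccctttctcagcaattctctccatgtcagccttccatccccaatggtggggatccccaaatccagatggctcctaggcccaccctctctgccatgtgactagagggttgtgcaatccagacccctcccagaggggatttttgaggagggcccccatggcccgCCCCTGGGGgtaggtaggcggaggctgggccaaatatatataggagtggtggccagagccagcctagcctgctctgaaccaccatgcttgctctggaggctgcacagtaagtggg
Cd79a: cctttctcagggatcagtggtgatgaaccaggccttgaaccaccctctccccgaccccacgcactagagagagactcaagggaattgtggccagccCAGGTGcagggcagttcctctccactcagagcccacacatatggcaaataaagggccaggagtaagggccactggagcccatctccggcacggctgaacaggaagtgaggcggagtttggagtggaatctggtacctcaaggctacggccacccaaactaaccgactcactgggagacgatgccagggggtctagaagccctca
Xbp1: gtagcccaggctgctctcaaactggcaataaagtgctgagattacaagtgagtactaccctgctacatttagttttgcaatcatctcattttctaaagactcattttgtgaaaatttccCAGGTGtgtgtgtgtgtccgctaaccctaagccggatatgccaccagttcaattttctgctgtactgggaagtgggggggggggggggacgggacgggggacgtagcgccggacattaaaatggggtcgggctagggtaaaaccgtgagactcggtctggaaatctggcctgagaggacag
The octamer, the element that OCT factors bind together with the product of Pou2af1, was found in 2 members, Vpreb3 and Blnk, or 7.41% of member windows, against 1.74% of all 32851 windows. The EBF pair was found in 4 members, Bank1, Cd22, Igll1 and Spib, or 14.8% of member windows against 13.7% of all. The E-box was found in 13 members and 48.1% of member windows against 20.2% of all, and GAGGAAGT, a PU.1-type motif, in Cd72 alone, or 3.7% against 3.2%. Spib holds the EBF pair in both overlapping readings of CCCCTGGGG, and Xbp1, which did not share the order of mice, holds an E-box too. These matches describe letters in a window and were not tested.

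Most mature B-cell genes had the same order of mice as the pre-B genes. Ms4a1, which encodes CD20, was at 4.40, 49.0 and 0.0799 CPM in CD61High and at 26.5, 61.3 and 0.702 CPM in CD61Low. With the block and without mouse 2 it fell in CD61High by log2 2.72 (SE 0.34, adjusted p = 0.0255 in edgeR), while with all 3 mice it was at -1.69 (SE 0.49, adjusted p = 0.143). Spib, an ETS factor of B cells and plasmacytoid dendritic cells, was at 3.65, 23.6 and 0.160 CPM against 19.2, 49.7 and 0.248 CPM, and Pou2af1, a coactivator of octamer factors, at 4.50, 24.4 and 0 CPM against 17.2, 35.0 and 0.372 CPM. Their blocked log2 fold changes were -1.73 (SE 0.33, adjusted p = 0.0708) and -1.53 (SE 0.45, adjusted p = 0.141). In CPM the values of each of these genes in CD61High overlapped those in CD61Low, because the spread between mice was wider than the difference within a mouse.

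Blk, a Src-family kinase of B cells, had 0 counts in CD61High of mouse 3 and reached 14.2 CPM in CD61Low of mouse 2. Bank1, a scaffold of B-cell receptor signalling, was at 5.34, 23.8 and 0.999 CPM in CD61High and at 16.3, 35.8 and 1.74 CPM in CD61Low. Fcrla, an intracellular Fc receptor-like protein, was at 1.73, 14.4 and 0 CPM against 9.18, 22.0 and 0.248 CPM. All 3 were lower in CD61High in each mouse, and DESeq2 with the block called each of them while edgeR with the block did not (adjusted p = 0.107, 0.0868 and 0.127). For Blk in mouse 3 the difference was 0 against 4 counts, which do not set the gates apart.

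Cd22, an inhibitory receptor, showed the widest contrast between mice 1 and 3. It was at 0.749, 14.3 and 0.480 CPM in CD61High and at 13.8, 24.5 and 0.413 CPM in CD61Low. The ratio of CD61Low to CD61High was 18.4 (95% counting interval 11.2 to 32.5) in mouse 1, 1.71 (1.50 to 1.95) in mouse 2 and 0.861 (0.333 to 2.18) in mouse 3, where 12 and 10 counts do not set the gates apart. About 9.5% of its exons overlap another gene.

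The receptors CD21 and CD23 kept more of their level in mouse 3 than most members. Cr2, which encodes CD21, a complement receptor, was at 3.28, 6.01 and 3.36 CPM in CD61High and at 9.42, 10.2 and 4.13 CPM in CD61Low, so mouse 3 kept 55.9% and 40.7% of the mouse 2 level. Fcer2a, which encodes CD23, the low-affinity IgE receptor, was at 2.53, 13.4 and 0.480 CPM in CD61High and at 13.1, 23.9 and 5.16 CPM in CD61Low. Mouse 3 thus kept only 3.58% of the mouse 2 level of Fcer2a in CD61High, and 21.6% in CD61Low. In mouse 3 its 12 counts in CD61High stood against 125 in CD61Low, a ratio of CD61Low to CD61High of 10.8 (95% counting interval 5.95 to 21.4). That ratio was larger than the 5.19 (3.89 to 7.06) of mouse 1 and the 1.79 (1.56 to 2.05) of mouse 2, with 5000 sorted cells behind each library. Fcer2a was at -2.15 (SE 0.44, adjusted p = 0.0780) with the block and fell by log2 2.83 (SE 0.39, adjusted p = 0.0306) with the block and without mouse 2.

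Cd72, an inhibitory coreceptor, was the only member with a higher level in CD61High in all 3 mice, at 41.1, 28.3 and 34.7 CPM against 33.1, 18.2 and 31.1 CPM. Its lowest level in each gate was in mouse 2, the opposite of the other mature B-cell genes. The log2 fold change was 0.28 (SE 0.15, adjusted p = 0.338) with the block and 0.28 (SE 0.18, adjusted p = 0.853) without it, so it did not pass. Tesk1 covers 41.58% of the exons of Cd72 in the annotation, and without strand the reads of the shared exons cannot be assigned. Tesk1 itself was counted at 9.66 to 31.9 CPM and was likewise lowest in mouse 2 in both gates.

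Among the plasma cell genes, Jchain and Xbp1 made up nearly all of the summed level, and they differed in their spread over the mice. Jchain, which joins IgM and IgA into polymers, was at 36.3, 473 and 1.20 CPM in CD61High and at 162, 613.5 and 1.53 CPM in CD61Low, so mouse 3 kept 0.253% and 0.249% of the mouse 2 level. Xbp1, the transcription factor of the unfolded protein response that plasma cells need for secretion, was at 171, 246.5 and 209 CPM in CD61High and at 264, 255.3 and 286 CPM in CD61Low. Per length, the TPM of Jchain was 0.274, 2.48 and 0.00741 times that of Xbp1 in CD61High and 0.789, 3.10 and 0.00689 times in CD61Low. Jchain thus exceeded Xbp1 in both libraries of mouse 2 and in no other.

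Xbp1 was the only member whose gates did not overlap in CPM, a pattern that 3.34% of genes tested showed in the same direction; on TMM-adjusted CPM its gates overlapped. Within mice 1, 2 and 3 Xbp1 differed by -0.65, -0.32 and -0.42 on the log2 scale. With the block it was at -0.46 (SE 0.13, adjusted p = 0.129) and without it at -0.44 (SE 0.24, adjusted p = 0.803), while DESeq2 with the block called it (-0.49, adjusted p = 0.0237). Jchain was at -1.17 (SE 0.38, adjusted p = 0.177) with the block.

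Prdm1, which encodes BLIMP1, the repressor that ends the B-cell programme, was at 1.12, 4.07 and 0.520 CPM in CD61High and at 1.60, 4.62 and 2.89 CPM in CD61Low. In mouse 3 it had 13 counts in CD61High and 70 in CD61Low, a ratio of CD61Low to CD61High of 5.56 (95% counting interval 3.05 to 11.0), where mice 1 and 2 gave 1.43 (0.841 to 2.47) and 1.14 (0.865 to 1.49). Irf4, a factor of plasma cells and activated B cells, was at 1.69, 4.76 and 0 CPM against 4.26, 7.08 and 0.165 CPM. Tnfrsf17, which encodes the survival receptor BCMA, never exceeded 1.33 CPM, and Mzb1, a chaperone of antibody assembly, never exceeded 0.379 CPM. Mzb1 thus stayed near the limit of a 0 count even in mouse 2, where Jchain had 11741 and 16194 counts; 57.2% of its exons overlap an annotated gene, with which reads cannot be assigned.

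Summed over each stage, the levels were highest in mouse 2 in both gates, and the level left in mouse 3 depended mostly on 1 gene per stage. The lymphoid progenitor genes summed to 11.3, 80.4 and 0.560 CPM in CD61High and to 43.7, 130.2 and 0.785 CPM in CD61Low. The pre-B genes summed to 86.5, 245 and 50.3 CPM against 178, 352 and 61.5 CPM, and the mature B-cell genes to 68.9, 204 and 40.2 CPM against 163, 295 and 44.3 CPM. The plasma cell genes summed to 211, 729.8 and 211 CPM against 432, 882 and 291 CPM. Mice 1 and 3 thus had like sums of plasma cell genes in CD61High, a sum that in mouse 3 was nearly all Xbp1.

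Without its most abundant gene (Ly6d, Cd79b, Cd72 and Xbp1 in turn), each stage was far lower in mouse 3. Mouse 3 then kept 0.135% and 0.121% of the mouse 2 sum for lymphoid progenitor genes in CD61High and CD61Low, 1.12% and 1.89% for pre-B genes, 3.16% and 4.76% for mature B-cell genes and 0.389% and 0.745% for plasma cell genes. The percentages for lymphoid progenitor genes rest on 1 count in each gate of mouse 3, of Il7r in CD61High and of Rag2 in CD61Low. The mean log2 ratio of CD61High to CD61Low over 3 mice was -1.02 ± 0.80 (SD, n = 3) for the lymphoid progenitor, -0.62 ± 0.39 for the pre-B, -0.64 ± 0.56 for the mature B and -0.59 ± 0.40 for the plasma cell sum. It was negative in each mouse for each stage. Without the most abundant gene the means were -1.12, -1.41, -1.37 and -1.25. The mean of -1.12 was over -3.11, -0.21 and -0.05 in mice 1, 2 and 3, so it came mostly from mouse 1. The stages were not tested against each other.

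**Figure D2:**
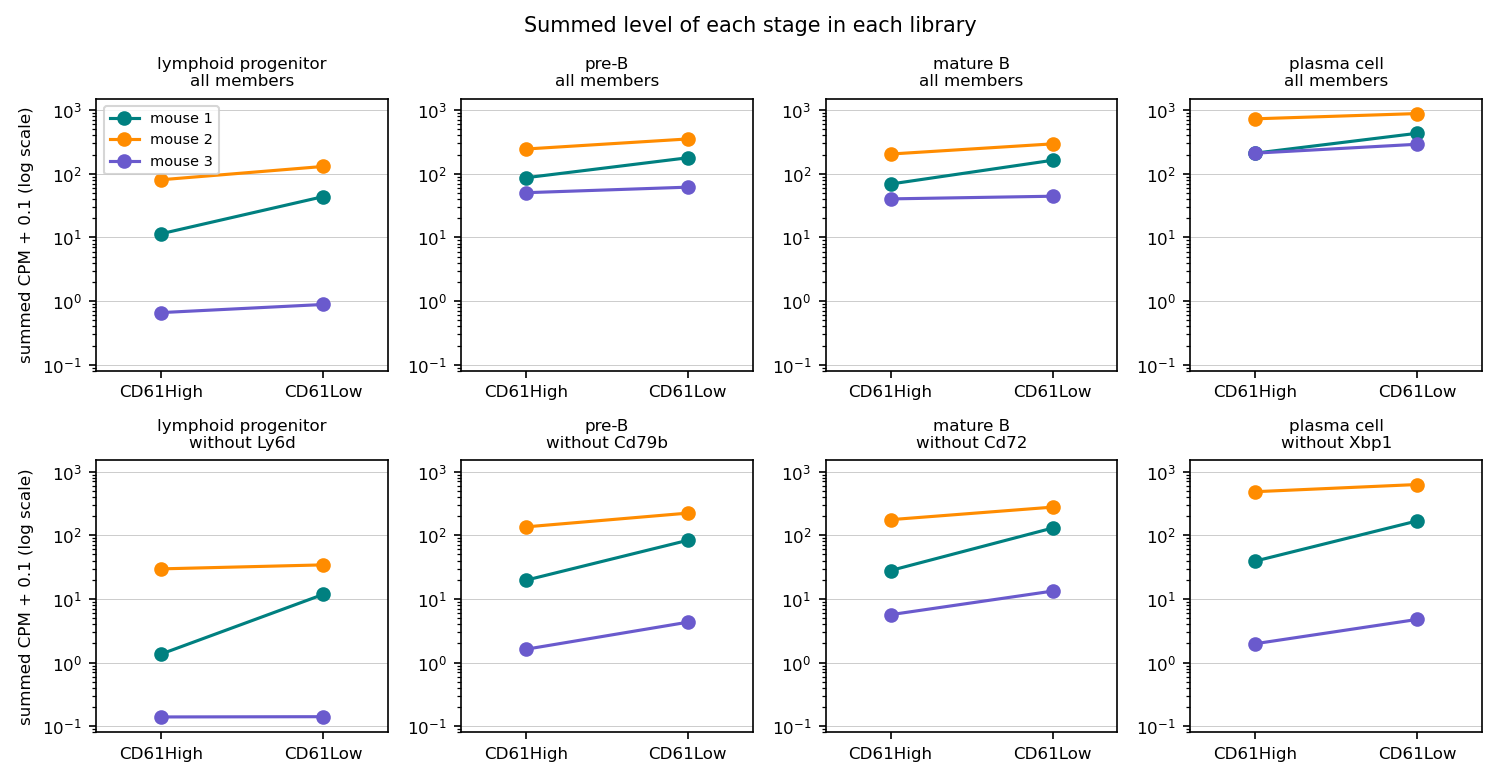
Summed CPM of each stage in each library, with 0.1 added on a log axis, for all its genes (top) and without its most abundant gene (bottom); lines join the gates of 1 mouse. Without Cd79b, Cd72 or Xbp1 the sums of mouse 3 are at most 13.2 CPM in either gate.

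**Figure D3:**
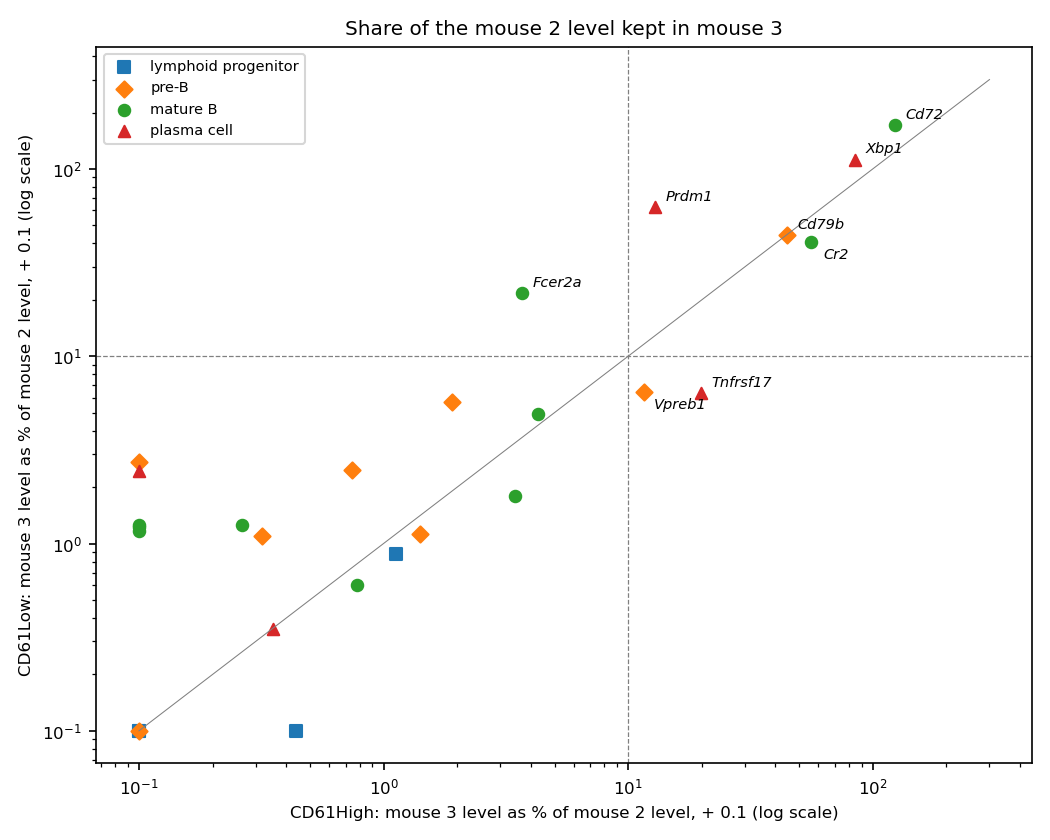
Level of each tested member in mouse 3 as a percent of its level in mouse 2, in CD61High (horizontal) and CD61Low (vertical), with 0.1 added on log axes; dashed lines mark 10% and the grey line equality of the gates. The 19 unlabelled members lie below 10% in both gates, and Cd72, Xbp1, Cd79b and Cr2 lie above 40% in both.

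**Figure D4:**
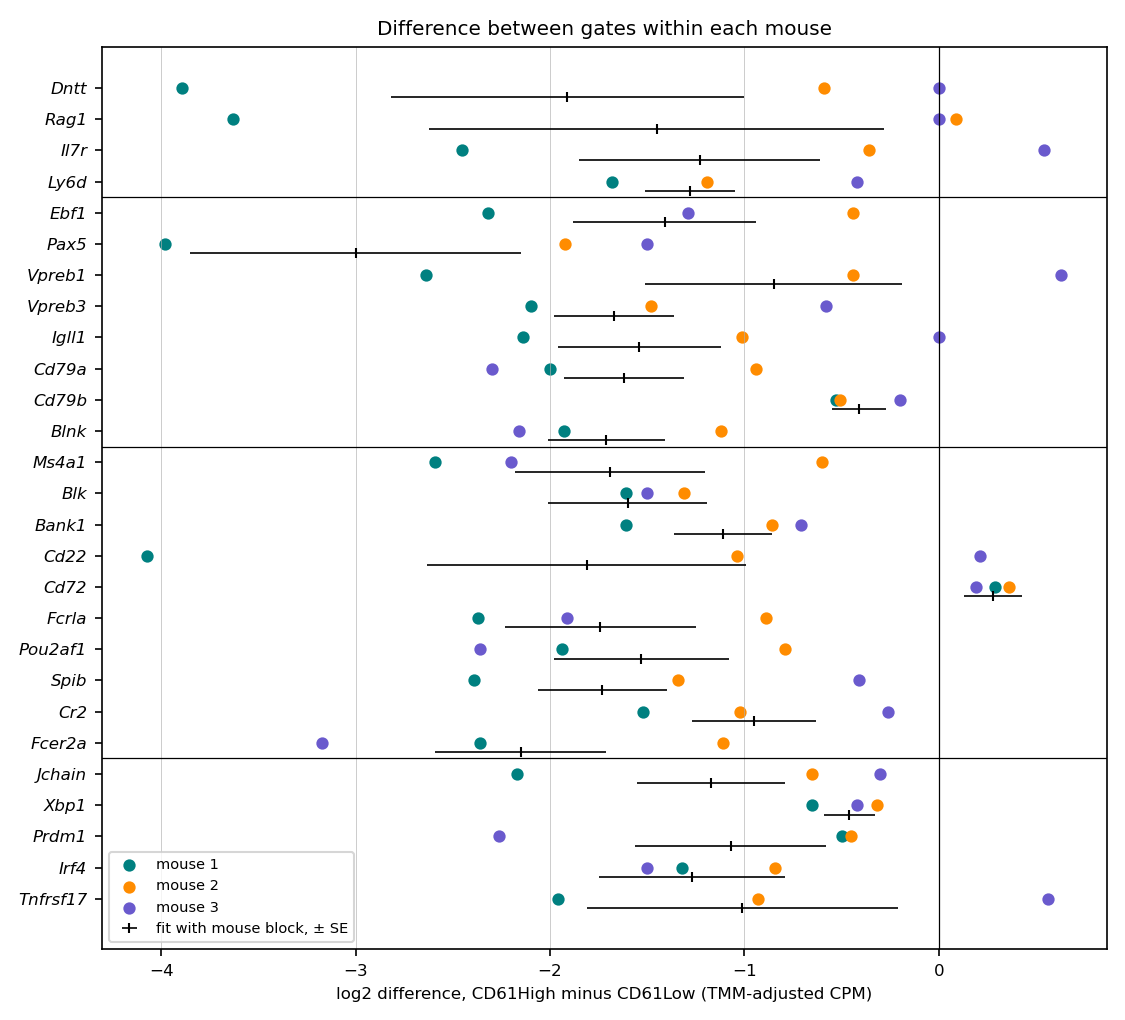
Log2 difference between CD61High and CD61Low within each mouse for the 27 tested members, on TMM-adjusted CPM, with the blocked edgeR estimate and its SE in black below the points. Most points lie left of 0, mouse 1 often furthest, and no estimate passed an adjusted p of 0.05.

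Set against Ms4a1, members differed in how far their ratio varied between libraries. The CPM of Cd79a was 2.53 and 1.50 times that of Ms4a1 in CD61High of mice 1 and 2 and 1.66, 1.90 and 1.65 times in CD61Low of mice 1, 2 and 3. Vpreb3 was 0.447 and 0.249 times, and then 0.325, 0.459 and 0.412 times, the CPM of Ms4a1 in the same libraries. Jchain was 8.26 and 9.66 times, and then 6.11, 10.0 and 2.18 times, the CPM of Ms4a1. Dntt was at 0 in CD61Low of mouse 3, 0.0426 times in CD61High of mouse 1, where it had 4 counts, and at most 0.245 times, in CD61Low of mouse 2. CD61High of mouse 3, with 2 counts of Ms4a1, gives no ratio. The ratios in CD61Low of mouse 3 rest on few counts: 17 of Ms4a1, 28 of Cd79a, 7 of Vpreb3, 37 of Jchain and 0 of Dntt.

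Genes of the same pathways outside the 29 were mixed. Of 11 immunoglobulin constant region genes, 10 were tested and all 10 were under 10% of the mouse 2 level in mouse 3 in both gates; the list summed to 558, 4851 and 8.15 CPM in CD61High and to 1705, 6422 and 13.5 CPM in CD61Low. Iglc2, a lambda light chain constant region, fell in CD61High with the block by log2 2.10 (SE 0.23, adjusted p = 0.0436 in edgeR). It was the only gene of that list that edgeR called over all 3 mice. Ighm, Igkc and Igha, the most abundant genes of the list, were at -1.03, -0.80 and -2.61 and were not called in that fit. Without mouse 2, edgeR with the block called 3 of the 8 genes then tested as lower, against 2.93% of genes. They were Ighm, Ighd and Igha (adjusted p = 0.0303, 0.0227 and 0.016 in edgeR). DESeq2 with the block called 5 of the 10 as lower, among them Ighm (adjusted p = 0.000715) and Igkc (adjusted p = 0.0100) but not Igha. Of the other pre-B and B-cell genes, 10 of 17 tested were under 10% in both gates and 5 were lower in CD61High in all 3 mice, with a median blocked log2 fold change of -0.66 against -0.02 over all genes. With the block and all 3 mice, edgeR called 0 of the 17 and DESeq2 called 5 as lower. Tnfrsf13b, which encodes the receptor TACI, was one that did not vary with the mouse in this way, at 110.3 to 125 CPM in CD61High and 95.7 to 119.9 CPM in CD61Low; Cd24a and Cd37 were highest in mouse 2.

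Among the other pathway lists, the order mouse 2, 1, 3 in both gates was shown by 5 of 13 regulators of lymphoid specification, 2 of 12 receptor signalling genes, 4 of 10 other plasma cell genes and 2 of 12 genes of the unfolded protein response and secretion, against 9.97% of all genes tested. Of the 13 regulators, 2 were under 10% in mouse 3 in both gates, Ikzf3 and Lef1, named after their values were seen. Mef2c, Tcf3 and Spi1 were the most abundant in CPM, and Mef2c, a factor shared by lymphoid and stem cells, was lowest in mouse 2 at 185 and 104 CPM, against 275 to 399.5 CPM elsewhere. Of 12 signalling genes, led by Dapp1, Cd81 and Plcg2, 0 were under 10%, and their summed level was 2916 to 3108 CPM in CD61High and 2571 to 3522 CPM in CD61Low. Of 10 other plasma cell genes, led by Txndc5, Prdx4 and Ssr4, 1 was under 10%, Slamf7, also named after its values were seen, and of 12 genes of the unfolded protein response and secretion, led by Hspa5, Pdia6 and Dnajc3, 0 were. The median blocked log2 fold changes of these 4 lists were -0.34, -0.14, 0.07 and 0.04. Over all 6 libraries edgeR called none of their genes with or without the block. DESeq2 with the block called 4, 3, 1 and 1 of their genes as lower, against 7.11% of all genes. With the same block, limma voom called 1 regulator as lower, against 1.63%.

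The neutrophil markers shared the direction of most B-cell genes between the gates and between mice 2 and 3. Their sum in CD61Low was 3.68, 1.60 and 3.32 times that in CD61High in mice 1, 2 and 3. For the sum of all 29 members the ratios were 2.17, 1.32 and 1.32. In mouse 3 that sum was mostly Xbp1, Cd79b and Cd72, at 209, 48.8 and 34.7 of 302 CPM in CD61High. Without the most abundant gene of each stage, the log2 ratios of CD61High to CD61Low in mouse 3 were -0.05, -1.43, -1.23 and -1.28. They belong to the lymphoid progenitor, pre-B, mature B and plasma cell sums in turn, the first resting on 1 count in each gate. All 20 neutrophil markers were lower in CD61High in all 3 mice and 19 were under 10% of the mouse 2 level in mouse 3 in both gates, with a median blocked log2 fold change of -1.83 against -1.45 for the 27 B-cell and plasma cell members. Of the 11 erythroid markers, 10 were lower in CD61High in all 3 mice. With the block and all 3 mice, edgeR called 1, Tspo2, as lower. Of the 11 monocyte and dendritic cell markers tested, 8 were lower in all 3. DESeq2 with the block called 16 of the 20 neutrophil markers, 9 of the 11 erythroid and 5 of the 11 monocyte and dendritic cell markers as lower. Over all genes it called 7.11% as lower. Their part in the differences of the B-cell genes was not tested.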

How the data were processed

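RNA was measured in 6 libraries, 3 CD61High and 3 CD61Low, made with SMART-Seq v4 from 4 ng of RNA and Nextera XT from 1 ng of cDNA, per the labels' protocols. The submitters' processing notes name edgeR, MultiQC and STAR 2.7 and, among the sources used here, none gives the genome build. The authors deposited read counts per gene, not normalized, and the unstranded counts were used, since 49.9% to 50.0% of stranded counts lay on the first strand. All 55450 identifiers matched GENCODE M21 (GRCm38), which gave symbols, coordinates, exon lengths and overlaps. Reads that name no gene stayed out: unmapped 4.36% to 10.9%, multimapping 10.0% to 15.6%, no feature 2.88% to 4.21%, ambiguous 3.55% to 4.37%. The series-wide table was not used here.

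From these counts CPM, TPM and tests were computed. The test was edgeR's quasi-likelihood F-test (version 4.0.16, R 4.3.3, robust, TMM, filterByExpr, two-sided, Benjamini-Hochberg over 15610 genes, threshold 0.05), without a block; log2 values carry a prior of 2 counts, and SEs derive from the F statistic. Alternatives were the mouse as a block, DESeq2 1.42.0, limma 3.58.1 voom, other scalings and filters, and leaving out libraries or mice; the scripts were tested on simulated data. Titles give the pairing by animal. Deviations from the gate means correlated at 0.236, 0.806 and 0.761 within mice 1, 2 and 3, and at -0.823 to 0.374 between libraries of different mice. Intervals of ratios are exact at 95% and cover counting error only, since no molecular identifiers were used. The ratios use CPM without the TMM factors, which were 0.926 in CD61High and 0.767 in CD61Low of mouse 2. Where the labels say no more than a mouse number, p-values without the block measure the spread between these libraries. Those with the block measure the spread of the gate difference between these mice. The members and lists were chosen with earlier results of these data known. All 29 members are named; of each other list, the up to 3 genes of highest mean CPM and any gene called by edgeR with or without the block qualify, and those on which no result turns are left out.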

Additional observations from a re-analysis of the deposited data

How the results depend on the processing

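With the mouse as a replicate block, edgeR called 40 genes in place of 0. In the same blocked fit, scaling by relative log expression gave 88, by the upper quartile 8 and by library size 0. It called 742 without mouse 2, 7 without mouse 3 and 0 without mouse 1. Without the block, 133 genes were called once mouse 2 was left out. DESeq2 called 237 genes without and 1566 with the block, and limma voom 0 and 333. The members called were 16 for DESeq2 and 3 for limma voom with the block, 4 for edgeR with the block without mouse 2, and 0 under each other setting run. In edgeR over all 6 libraries the block changed no call of a member; in DESeq2 and limma voom it added the 16 and 3. The cause of these differences between tools was not tested. The fits without the block that leave out a mouse, the other scalings of the blocked fit and the scalings of the count of members lower in 3 mice (19 with library sizes or relative log expression, 21 with upper-quartile factors) were chosen after seeing the data.

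Signs turned in few settings that keep whole mice: Rag1 was at 0.17 without mouse 1, with and without the block, and Vpreb1 at 0.03 with the block. Leaving out 1 library without the block moved log2 fold changes across 0 for 21 members. Their ranges were Bank1 -2.86 to 0.33, Blk -3.38 to 0.28, Blnk -3.47 to 0.17, Cd79a -3.65 to 0.50, Cd79b -0.95 to 0.10, Dntt -6.47 to 1.24, Ebf1 -3.51 to 0.34, Fcrla -3.98 to 0.37, Igll1 -4.36 to 0.97, Il7r -3.89 to 0.72, Irf4 -2.53 to 0.11. Those of the others were Jchain -4.21 to 1.26, Ly6d -3.42 to 0.50, Ms4a1 -4.10 to 0.59, Pax5 -9.30 to 0.04, Pou2af1 -3.33 to 0.31, Rag1 -6.28 to 1.12, Spib -3.99 to 0.09, Tnfrsf17 -2.84 to 0.56, Vpreb1 -2.89 to 0.43, Vpreb3 -3.95 to 0.28. The highest value came in each case without CD61Low of mouse 2, the library with the highest level of most members. Rag1 was above 0 also without CD61High of mouse 1 or of mouse 3. Leaving out 1 library breaks the pairing by mouse, so these ranges mix the spread between mice with the gate. Without their most abundant gene, the mean log2 ratios of the stage sums moved to -1.41 for pre-B, -1.37 for mature B and -1.25 for plasma cell genes. Depth limits the members of mouse 3: 16 of 29 had over 3 counts in CD61High and 22 in CD61Low.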
